A study of Mus musculus with 8 samples.

Results

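The transcripts of 10 genes of the NF-kB pathway were followed in myeloid cells sorted from the spleen (SP) and bone marrow (BM) of sanroque mice. They comprise 5 genes for the subunits of the transcription factor, Nfkb1, Nfkb2, Rel, Rela and Relb, and 5 for inhibitors and regulators that act back on it, Nfkbia, Nfkbie, Nfkbiz, Tnfaip3 and Bcl3. The members were found by their symbols, 10 of the 54188 genes in the count table, and all 10 passed the filter on low counts that left 17650 genes for testing. Each group comprised 2 libraries, made from SP or BM cells that were CD11b+Gr-1hi (described by the labels as granulocytic, G-MDSC) or CD11b+Gr-1lo (monocytic, M-MDSC). All 4 groups came from sanroque mice on the C57BL/6 strain, homozygous for the san allele of Roquin, labelled female and 20 weeks old, so that every library carried the mutation and wild-type cells were not analysed here. The study describes the libraries of a group as independent biological replicates, but the labels do not say which mouse gave which library. With 2 libraries a group, p-values rest on the spread between libraries pooled over the groups.

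NF-kB proteins bind DNA as dimers of the Rel family. RelA and c-Rel carry activation domains, whereas the products of Nfkb1 and Nfkb2 are made as the precursors p105 and p100, whose processing gives p50 and p52. In resting cells the IkB proteins, encoded by Nfkbia, Nfkbie and others, hold the dimers in the cytoplasm. Signals from Toll-like, interleukin-1 and tumour necrosis factor receptors lead to the destruction of the IkB proteins in the canonical pathway, whereas CD40, lymphotoxin beta and BAFF receptors use NIK (Map3k14) and the p52 and RelB pair in the non-canonical pathway. Several of the inhibitor genes are themselves targets of NF-kB, so that the pathway limits its own output, and in myeloid cells it drives inflammatory cytokines and survival genes.

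Matches to the NF-kB consensus next to the starts of these genes are shown first, because several of the genes are textbook targets of the factor they encode or restrain. RefSeq promoter windows, from 250 bases before to 50 bases after an annotated start on GRCm38.p6, were given for 7 of the 10 genes and were searched on both strands for the 10-base NF-kB consensus. A match was found for 6 of the 7, namely Nfkb2, Rel, Nfkbia, Nfkbie, Tnfaip3 and Bcl3, but not in the window of Rela. Of all 27025 genes with a window, 5.136% held a match. Each sequence is written 5′ to 3′ on the strand of its gene, with the 10 matched bases in capitals and 8 bases on either side.
Nfkb2, chr19:46304690-46304715, plus strand: atcgtcacGGGAATTCCCcccctcgg
Nfkb2, chr19:46304718-46304743, plus strand: ggccgaaaGGGGCTTTCCcggctgga
Rel, chr11:23771044-23771069, minus strand: taagcagcGGGAAATCCCcccccctc
Nfkbia, chr12:55492659-55492684, minus strand: actggcttGGAAATTCCCcgcgcctg
Nfkbie, chr17:45555586-45555611, plus strand: agcaaacaGGGGGATTCCggaggggc
Tnfaip3, chr10:19015405-19015430, minus strand: tttccatcGGAAATCCCCctgttggc
Tnfaip3, chr10:19015518-19015543, minus strand: ctcacgcgGGGACACCCCggggcggg
Bcl3, chr7:19822736-19822761, minus strand: ggcggcagGGGAAGTCCCgctgcccg
For Nfkb2, which had 3 windows with 6 matches in all, the matches shown are from the window of the start at the lowest coordinate, which itself lies within the annotated gene. The first Nfkb2 match and the Rel match each overlapped another match shifted by 1 base, and each read as a match on both strands. The first base of the match stood 39 and 11 bases before that start for Nfkb2, 92 for Rel, 29 for Nfkbia, 106 for Nfkbie and 12 and 125 for Tnfaip3, and lay just past the start for Bcl3. By the GENCODE M21 annotation of GRCm38, the Rel, Nfkbia and Nfkbie matches lay upstream of the gene, the Nfkb2 matches shown and that of Bcl3 in an exon and those of Tnfaip3 in an intron. The windows of the other Nfkb2 starts held a match at chr19:46305451-46305476, in an intron, and 1 at chr19:46305697-46305722, in an exon, which fell in both windows. A match describes the letters of the window and not the binding of a factor.

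The 250 bases before the start of Nfkbia, at chr12:55492648-55492897 on the minus strand, are given whole because Nfkbia had the highest level per length of the 10 genes in each of the 8 libraries.
Nfkbia upstream: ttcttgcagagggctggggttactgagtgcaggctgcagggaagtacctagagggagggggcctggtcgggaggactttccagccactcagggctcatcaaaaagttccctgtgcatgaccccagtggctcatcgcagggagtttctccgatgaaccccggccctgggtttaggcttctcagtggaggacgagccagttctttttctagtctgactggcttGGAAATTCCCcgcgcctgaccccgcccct
Its match again stands in capitals, close to the 3′ end of the window. Rela, the subunit with which Nfkbia was compared below, had no match in its window.

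The libraries held between 33453580 and 68316154 counts, and 3 counts, taken as the limit of detection, corresponded to 0.0348 to 0.124 CPM (counts scaled to library sizes, which were adjusted by TMM). Members had from 337 to 19489 counts in a library, far above that limit. Ly6g, the granulocyte antigen seen by the Gr-1 antibody, was at 330.0 to 801 CPM in the Gr-1hi libraries and 3.07 to 8.23 CPM in the Gr-1lo libraries, and Csf1r was higher in the Gr-1lo cells of each tissue. Xist was at 12032 counts in SP Gr-1hi library 5 and 9898 in SP Gr-1lo library 7 and at 5 or fewer elsewhere, whereas the Y-linked Ddx3y was at 0 in library 5 and at 1595 to 4902 in the other 7. Libraries 6, 8, 9, 10, 11 and 12 thus went against the label female and library 7 held both transcripts, so the main SP results are also given without libraries 5 and 7. The 2 libraries of SP Gr-1hi differed most from each other (chi-square per degree of freedom 68.2, against 19.1 to 22.9 in the other groups).

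Markers of other cell types differed between the tissues and accompany every comparison of SP with BM. The summed level of 10 B cell markers was 362 to 537 CPM in SP Gr-1hi against 16.6 to 20.2 CPM in BM Gr-1hi, and 66.7 to 84.5 against 8.17 to 10.2 CPM in the Gr-1lo cells. Of these markers 10 of 10 were higher in SP in Gr-1hi cells and 9 of 10 in Gr-1lo cells. The 10 T cell markers summed to 80.0 to 122 CPM in SP Gr-1hi against 18.7 to 19.3 CPM in BM, and to 27.1 to 39.0 against 2.21 to 2.83 CPM in Gr-1lo cells, with 8 and 10 of them higher. Dendritic cell markers (36.7 to 44.7 against 7.18 to 7.22 CPM in Gr-1hi, 20.7 to 32.1 against 6.44 to 9.18 CPM in Gr-1lo) and erythroid markers (218 to 735 against 35.9 to 44.1 CPM, and 167 to 233 against 7.76 to 8.35 CPM) also had higher sums in SP. Of the 10 dendritic cell markers 6 were higher and 1 lower in Gr-1hi cells and 5 were higher in Gr-1lo cells, where Dnase1l3 alone was at 8.80 and 20.3 CPM in SP and Flt3 was at 4.75 and 2.90 CPM in SP against 6.45 and 3.31 CPM in BM. Plasma cell markers summed to 86.1 to 149 against 10.3 to 11.3 CPM in Gr-1hi cells and 56.8 to 75.3 against 15.5 to 15.9 CPM in Gr-1lo cells, with 7 and 5 of the 7 tested higher. Splenic macrophage markers summed to 279 to 318 against 147 to 178 CPM and 254 to 308 against 173 to 204 CPM, with 9 and 7 of 10 higher. No B or T cell defining marker was at 0 in an SP library. The 10 neutrophil markers summed to 78715 to 112170 CPM in SP Gr-1hi, below the 153600 to 168256 CPM of BM Gr-1hi, and to 10690 to 11979 CPM in SP Gr-1lo, above the 4945 to 5018 CPM of BM Gr-1lo. The 10 monocyte markers summed to 7522 to 7545 CPM in SP Gr-1lo, below the 10016 to 10885 CPM of BM Gr-1lo, and none of them passed. In Gr-1hi cells they summed to 1091 to 1207 CPM in SP against 1334 to 1776 CPM in BM, with 3 higher and 1 lower. Lymphocytes and dendritic cells use NF-kB as well, and in bulk RNA fewer cells of a type and less RNA per cell cannot be told apart. The part of these markers in the results on Nfkb2, Relb, Rel, Nfkbia, Nfkbie and Tnfaip3 was not tested.

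**Figure D1:**
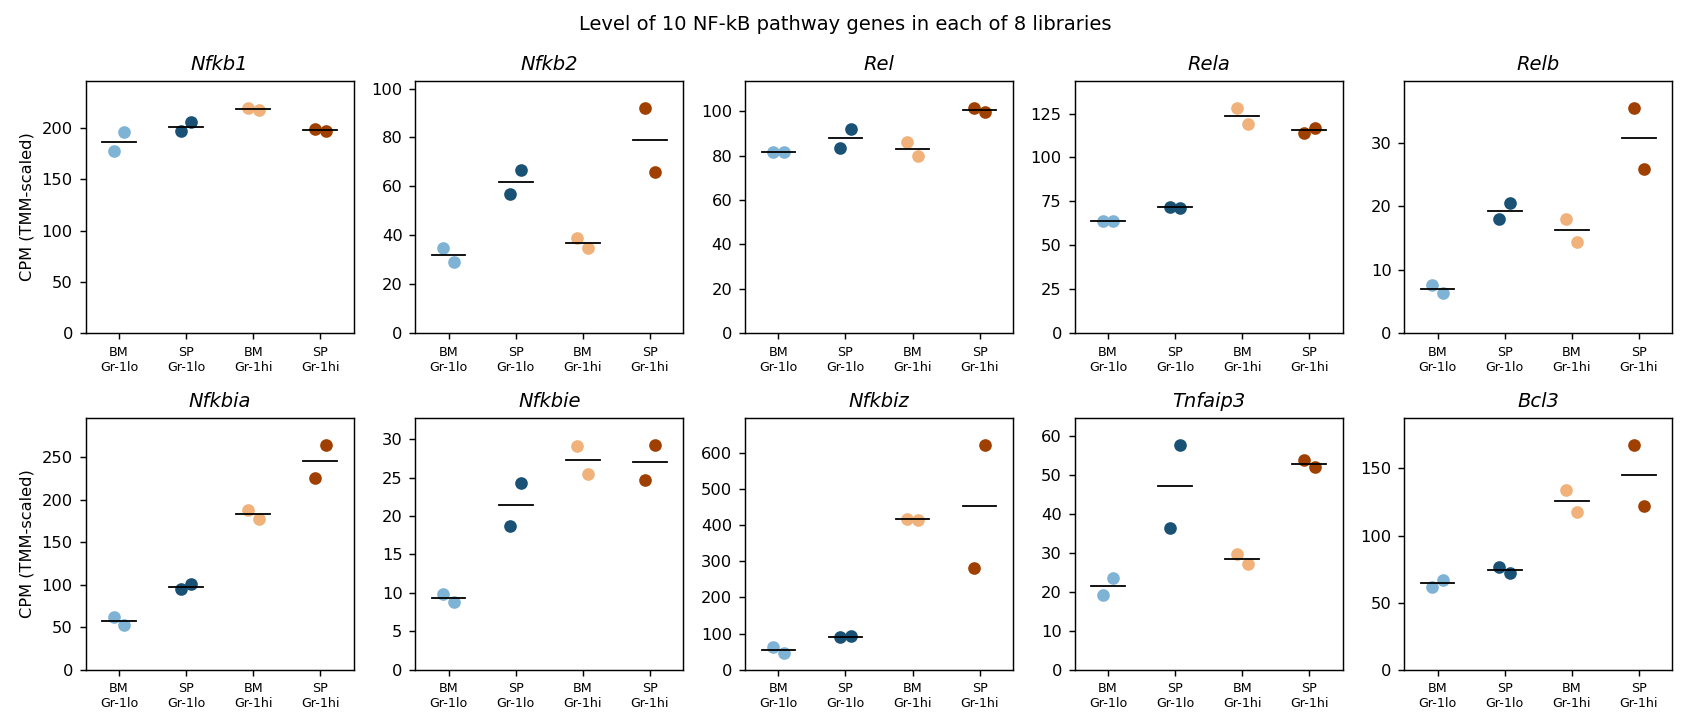
Level of each of the 10 genes in CPM (on TMM-scaled library sizes, linear axis from 0), with 1 point for each of the 8 libraries and a bar at the mean of the 2 libraries of a group. Nfkb2, Relb and Tnfaip3 stand higher in both SP groups than in the BM groups of the same subset, Nfkb1 and Rel lie in a narrow range, and the 2 SP Gr-1hi libraries of Nfkbiz lie far apart, at 282 and 622 CPM.

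The first question was how SP cells differed from the BM cells of the same phenotype, which served as the reference in the study. In the Gr-1lo subset, 5 of the 10 genes were higher in SP with adjusted p no greater than 0.05 and none was lower (the quasi-likelihood F test of edgeR, with p adjusted by Benjamini-Hochberg over all genes tested, used throughout). Of all genes tested, 4.88% were higher and 0.697% lower in this comparison. The 5 were the subunit genes Nfkb2 and Relb and the inhibitor genes Nfkbia, Nfkbie and Tnfaip3. At the thresholds of the study, which also ask for a 2-fold change, 3 passed, namely Relb, Nfkbie and Tnfaip3, where 3.84% of all genes were higher. In all 10 genes both SP libraries lay above both BM libraries, which held for 27.1% of all genes tested. The median log2 fold change of the 10 was 0.76, against -0.01 over all genes.

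In the Gr-1hi subset, 5 of the 10 were higher in SP and none lower, where 20.1% of all genes were higher and 13.9% lower. They were Nfkb2, Relb, Rel, Nfkbia and Tnfaip3, so that 4 genes, Nfkb2, Relb, Nfkbia and Tnfaip3, passed in both subsets. At the thresholds of the study only Nfkb2 passed, where 14.0% of all genes were higher. Both SP libraries lay above both BM libraries in 5 of the 10, against 35.9% of all genes, and below them in 2, Nfkb1 and Rela, against 31.9%. The median log2 fold change of the 10 was 0.24, against 0.03 over all genes.

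Among the subunits, Nfkb2 showed the tissue difference in both subsets. It encodes p100, which is cut to p52 in the non-canonical pathway. Nfkb2 (ENSMUSG00000025225, chr19:46304320-46312385) was at 92.0 and 66.0 CPM in SP Gr-1hi libraries 5 and 6, 38.9 and 34.8 CPM in BM Gr-1hi, 56.8 and 66.7 CPM in SP Gr-1lo and 34.7 and 29.1 CPM in BM Gr-1lo. The 4 SP libraries were all above the 4 BM libraries, and the subsets overlapped within SP. The log2 fold change of SP over BM was 1.10 (SE 0.17, 2.14-fold, adjusted p = 0.00255) in Gr-1hi cells and 0.95 (SE 0.17, 1.94-fold, adjusted p = 0.0147) in Gr-1lo cells. Without libraries 5 and 7 it was 0.86 (adjusted p = 0.00619) and 1.05 (adjusted p = 0.00331). The Gr-1hi call held under all 15 alternatives, and the Gr-1lo call was lost without SP library 8 (0.84, adjusted p = 0.106) or BM library 12 (0.83, adjusted p = 0.122). An opposite-strand transcript, AC114539.1, shares 531 exon bases with Nfkb2 and had 2873 counts over the 8 libraries, and Psd shares 299 and had 107. The library kit kept the strand and the name of the deposited table calls it stranded, but the counting setting is not given in the sources used here. If the strand was not used, reads of these pairs would be mixed.

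Relb encodes the partner of p52. It was at 35.5 and 25.9 CPM in SP Gr-1hi, 18.0 and 14.3 CPM in BM Gr-1hi, 17.9 and 20.6 CPM in SP Gr-1lo and 7.60 and 6.37 CPM in BM Gr-1lo (ENSMUSG00000002983, chr7:19606217-19629438). It was lowest in BM Gr-1lo cells, and SP Gr-1lo cells reached the level of BM Gr-1hi cells. The log2 fold change of SP over BM was 0.92 (SE 0.19, adjusted p = 0.00683) in Gr-1hi cells and 1.47 (SE 0.19, 2.76-fold, adjusted p = 0.00289) in Gr-1lo cells. In Gr-1hi cells the difference was 0.69 (adjusted p = 0.0410) without libraries 5 and 7, and it no longer passed without BM Gr-1hi library 10 (0.67, adjusted p = 0.0645). In Gr-1lo cells Relb passed under all 15 alternatives, with a log2 fold change of 1.27 to 1.60.

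Rel, the gene of c-Rel, varied little. It was at 101 and 99.8 CPM in SP Gr-1hi, 86.0 and 80.0 CPM in BM Gr-1hi, 83.7 and 92.2 CPM in SP Gr-1lo and 81.7 CPM in both BM Gr-1lo libraries. The SP excess in Gr-1hi cells was 0.28 on the log2 scale (SE 0.09, adjusted p = 0.0382). It passed under 2 of 15 alternatives, with adjusted p from 0.0181 to 0.398, and lost the call whichever of the 8 libraries was left out. In Gr-1lo cells it was 0.11 (SE 0.09, adjusted p = 0.541).

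Rela and Nfkb1, which form the common canonical dimer, did not pass between the tissues in either subset. Rela was at 114 and 117 CPM in SP Gr-1hi, 128 and 119 CPM in BM Gr-1hi, 71.9 and 71.2 CPM in SP Gr-1lo and 63.9 CPM in both BM Gr-1lo libraries. Its log2 fold change of SP over BM was -0.10 (SE 0.08, adjusted p = 0.360) in Gr-1hi and 0.16 (SE 0.08, adjusted p = 0.301) in Gr-1lo cells. Nfkb1 was at 199.6 and 197 CPM in SP Gr-1hi, 219.6 and 218 CPM in BM Gr-1hi, 197 and 206 CPM in SP Gr-1lo and 178 and 196 CPM in BM Gr-1lo. Its log2 fold change of SP over BM was -0.14 (SE 0.08, adjusted p = 0.210) in Gr-1hi and 0.11 (SE 0.08, adjusted p = 0.500) in Gr-1lo cells.

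Among the inhibitors, Nfkbia, which encodes IkB alpha and is resynthesised after each round of NF-kB activity, was higher in SP in both subsets. It was at 225 and 264 CPM in SP Gr-1hi, 188 and 178 CPM in BM Gr-1hi, 94.6 and 100.4 CPM in SP Gr-1lo and 61.5 and 53.1 CPM in BM Gr-1lo (ENSMUSG00000021025, chr12:55489410-55492647). The 4 groups did not overlap, in the order SP Gr-1hi, BM Gr-1hi, SP Gr-1lo, BM Gr-1lo. The log2 fold change of SP over BM was 0.42 (SE 0.11, adjusted p = 0.0188) in Gr-1hi and 0.77 (SE 0.11, 1.70-fold, adjusted p = 0.00506) in Gr-1lo cells. Without libraries 5 and 7 it was 0.55 (adjusted p = 0.0196) and 0.80 (adjusted p = 0.00678). The Gr-1hi call was lost without SP library 6 (0.23, adjusted p = 0.149), BM library 9 (0.39, adjusted p = 0.0808) or BM library 10 (0.28, adjusted p = 0.170), and the Gr-1lo call without BM library 12 (0.67, adjusted p = 0.0549).

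Nfkbie, the gene of IkB epsilon, differed between the tissues in Gr-1lo cells. It was at 18.7 and 24.3 CPM in SP Gr-1lo and 9.92 and 8.80 CPM in BM Gr-1lo, against 24.7 and 29.3 CPM in SP Gr-1hi and 29.2 and 25.5 CPM in BM Gr-1hi (ENSMUSG00000023947, chr17:45555703-45563169). The BM Gr-1lo libraries stood alone at the low end, and the 2 Gr-1hi groups overlapped. The log2 fold change of SP over BM was 1.20 (SE 0.16, 2.30-fold, adjusted p = 0.00327) in Gr-1lo cells, which passed under all 15 alternatives, and -0.02 (SE 0.16, adjusted p = 0.941) in Gr-1hi cells, which passed under none. The difference between these 2 changes, the interaction of tissue and subset, was -1.22 on the log2 scale (SE 0.22, adjusted p = 0.0107). With all 8 libraries and TMM scaling, Nfkbie alone of the 10 genes passed this test, and Relb passed too when low genes were kept (-0.57, adjusted p = 0.0442), where 6.08% of all genes passed in the same direction and 10.3% in the other. Its interaction passed under all 14 alternatives, from -1.44 to -1.02.

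Tnfaip3 encodes A20, a ubiquitin-editing enzyme that shuts off signalling upstream of the IkB kinases. It was at 53.7 and 52.1 CPM in SP Gr-1hi, 29.6 and 27.04 CPM in BM Gr-1hi, 36.4 and 57.7 CPM in SP Gr-1lo and 19.3 and 23.5 CPM in BM Gr-1lo (ENSMUSG00000019850, chr10:19000910-19015657). As with Nfkb2, the 4 SP libraries lay above the 4 BM libraries, and SP Gr-1lo library 7 was well below library 8. The log2 fold change of SP over BM was 0.90 (SE 0.20, adjusted p = 0.0111) in Gr-1hi cells and 1.14 (SE 0.20, 2.20-fold, adjusted p = 0.0141) in Gr-1lo cells. Without libraries 5 and 7, which left 1 library in each SP group, it was 0.89 and 1.42. The Gr-1hi call was lost without SP library 5 (0.80, adjusted p = 0.0812) or BM library 10 (0.74, adjusted p = 0.0786) and under limma on TPM (0.64, adjusted p = 0.0642). The Gr-1lo call was lost without BM library 11 (1.002, adjusted p = 0.108) or 12 (1.29, adjusted p = 0.0540), under limma on TPM (1.06, adjusted p = 0.0560) and in a fit of the 4 libraries compared (1.16, adjusted p = 0.0647).

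Nfkbiz and Bcl3 encode the nuclear IkB proteins, which bind p50 and p52 on DNA and can raise transcription of some targets. Nfkbiz was at 282 and 622 CPM in SP Gr-1hi, 417 and 414 CPM in BM Gr-1hi, 89.7 and 93.5 CPM in SP Gr-1lo and 61.8 and 47.2 CPM in BM Gr-1lo. Library 5 of SP Gr-1hi lay below and library 6 above both BM Gr-1hi libraries. The log2 fold change of SP over BM in Gr-1hi cells was 0.12 (SE 0.33, adjusted p = 0.810), but 0.50 (adjusted p = 0.0401) without SP library 5 and -0.64 (adjusted p = 0.0112) without SP library 6, so each library alone gave a call of opposite direction. In Gr-1lo cells it was 0.75 (SE 0.34, adjusted p = 0.282), although the 2 groups did not overlap. With either SP Gr-1hi library left out, the Gr-1lo difference passed at nearly the same size (0.77, adjusted p = 0.00752, and 0.76, adjusted p = 0.00736), since the spread between libraries 5 and 6 enters the error of every comparison.

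Bcl3 was at 168 and 122 CPM in SP Gr-1hi, 134 and 117 CPM in BM Gr-1hi, 76.7 and 72.4 CPM in SP Gr-1lo and 61.9 and 67.2 CPM in BM Gr-1lo. The Gr-1hi groups overlapped. Its log2 fold change of SP over BM was 0.21 in each subset (SE 0.15, adjusted p = 0.301 in Gr-1hi and 0.476 in Gr-1lo). The opposite-strand transcript Gm16175 shares 161 exon bases with Bcl3 and had 22 counts over the 8 libraries.

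**Figure D2:**
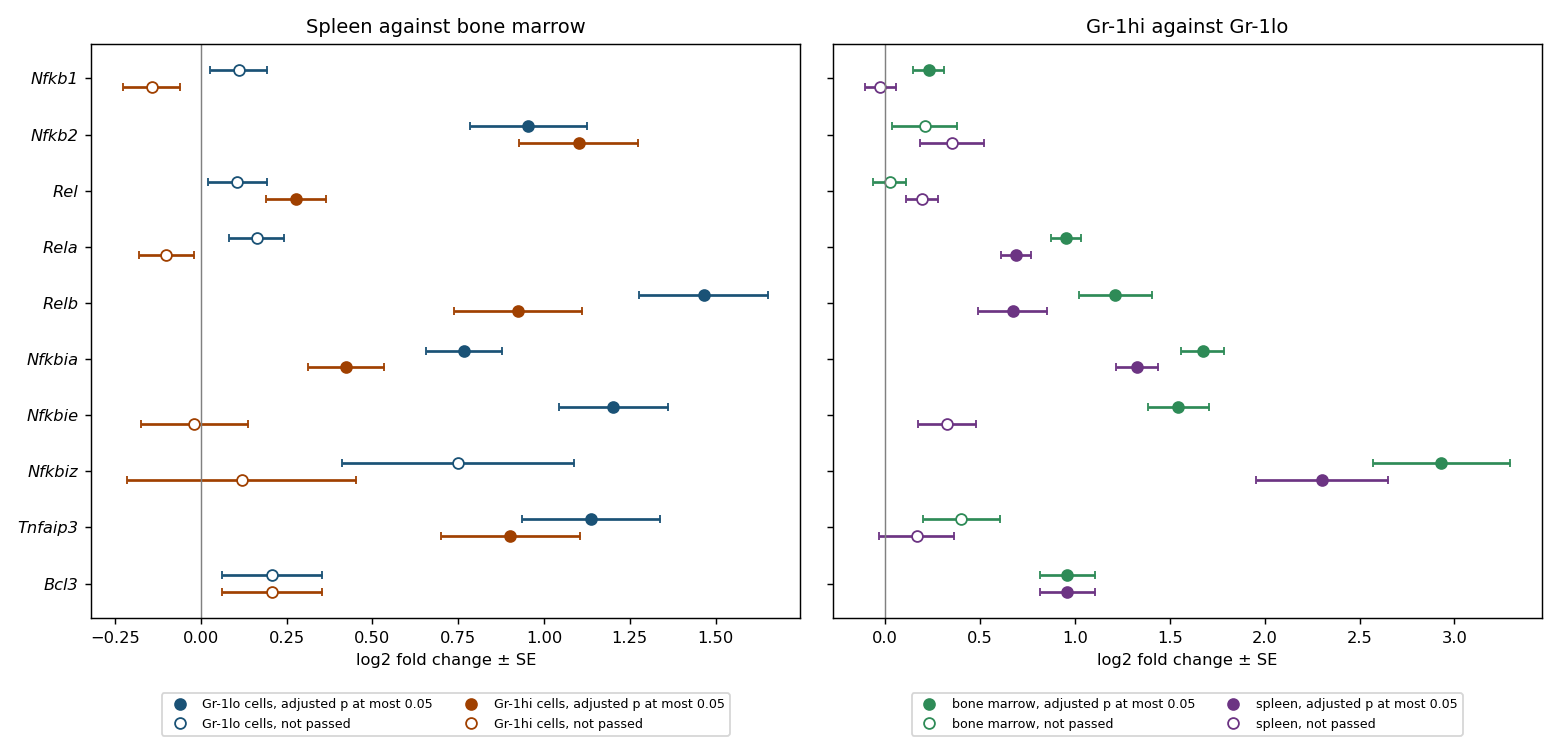
Log2 fold change (x axis) of each of the 10 genes (rows) for SP over BM within each subset (left) and for Gr-1hi over Gr-1lo within each tissue (right). Points are estimates of edgeR's quasi-likelihood fit over 8 libraries, bars are ± 1 SE, and filled points have an adjusted p of at most 0.05. Nfkbie shows 1.20 in Gr-1lo and -0.02 in Gr-1hi cells on the left, and Nfkbiz shows 2.93 in BM and 2.30 in SP on the right.

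The second question was how Gr-1hi cells differed from Gr-1lo cells of the same tissue. In BM, 7 of the 10 genes were higher in Gr-1hi cells and none was lower, where 34.5% of all genes were higher and 41.2% lower. They were the subunit genes Nfkb1, Rela and Relb and the inhibitor genes Nfkbia, Nfkbie, Nfkbiz and Bcl3. No member passed the thresholds the study used here, an adjusted p below 0.01 and a fold above 8, which 6.56% of all genes passed as higher. Both Gr-1hi libraries lay above both Gr-1lo libraries in 9 of the 10, against 40.6% of all genes. In SP, 5 of the 10 were higher in Gr-1hi cells and none lower, where 33.6% of all genes were higher and 37.8% lower, and none passed the thresholds of the study, which 4.44% of all genes passed as higher. The 5 were Rela, Relb, Nfkbia, Nfkbiz and Bcl3. Here 7 of the 10 did not overlap between the subsets, against 40.6% of all genes. The median log2 fold change of the 10 was 0.96 in BM and 0.51 in SP, against -0.17 and -0.09 over all genes.

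Nfkbiz had the steepest difference between the subsets among the 10. Its log2 fold change of Gr-1hi over Gr-1lo was 2.93 in BM (SE 0.36, 7.63-fold, adjusted p = 0.000247) and 2.30 in SP (SE 0.35, adjusted p = 0.000895). For Nfkbia BM cells gave 1.67 (SE 0.11, 3.19-fold, adjusted p = 1.92e-06) and SP cells 1.33 (SE 0.11, adjusted p = 1.06e-05). Bcl3 had a difference of 0.96 (SE 0.15) in each tissue, with adjusted p = 0.000326 in BM and 0.000383 in SP. Nfkbie differed by 1.55 in BM (SE 0.16, 2.92-fold, adjusted p = 2.71e-05) and by 0.33 in SP (SE 0.15, adjusted p = 0.0874), the pair of values that the interaction test compared. Tnfaip3 was not called between the subsets in either tissue, with 0.40 in BM (SE 0.20, adjusted p = 0.102) and 0.17 in SP (SE 0.20, adjusted p = 0.470).

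Of the subunits, Rela was higher in Gr-1hi cells by 0.95 in BM (SE 0.08, adjusted p = 7.13e-06) and by 0.69 in SP (SE 0.08, adjusted p = 6.95e-05). Rela, Nfkbia, Nfkbiz and Bcl3 passed under all 15 alternatives in both tissues. Relb was higher by 1.21 in BM (SE 0.19, adjusted p = 0.000390) and by 0.67 in SP (SE 0.18, adjusted p = 0.00902), but by 0.31 (adjusted p = 0.240) in SP without libraries 5 and 7. Nfkb1 was higher by 0.23 (SE 0.08, adjusted p = 0.0313) in BM, which passed under 8 of 15 alternatives and fell to 0.13 (adjusted p = 0.306) without BM Gr-1lo library 11, and stood at -0.02 (SE 0.08, adjusted p = 0.798) in SP. Nfkb2 and Rel did not pass in either tissue, with log2 fold changes of 0.21 and 0.02 in BM and 0.35 and 0.19 in SP. With RLE in place of TMM scaling, which moved the median of all genes in SP from -0.09 to 0.04 and in BM from -0.17 to -0.03, Nfkb2, Rel and Nfkbie also passed in SP.

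The interaction of tissue and subset was below 0 for 8 of the 10 genes, of which Bcl3 was at -0.00 and changed sign with upper-quartile scaling (0.04). A value below 0 means a smaller SP excess in Gr-1hi than in Gr-1lo cells. The 10 had a median of -0.26 against 0.03 over all genes. Apart from Nfkbie, none passed. Relb was at -0.54 (SE 0.26, adjusted p = 0.193), Nfkbia at -0.34 (SE 0.16, adjusted p = 0.167), Rela at -0.26 (SE 0.11, adjusted p = 0.147) and Nfkbiz at -0.63 (SE 0.47, adjusted p = 0.411). The value of Nfkbiz rested on its SP Gr-1hi libraries, being -1.40 (adjusted p = 0.00186) without library 6 and -0.27 (adjusted p = 0.405) without library 5. Nfkb2 and Rel were slightly positive, at 0.15 and 0.17.

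Levels were compared between genes per length, as TPM, from the summed exon length of each gene. TPM shares of a library sum to a fixed total without TMM scaling, so they are used here to order genes within a group. In SP Gr-1hi cells the order was Nfkbia at 305 ± 17.0 TPM (SD, n = 2), Nfkbiz at 178 ± 86.0, Bcl3 at 118 ± 32.7 and Rela at 75.5 ± 2.84 TPM, all above the other 6 genes. Nfkb2 at 34.9 ± 10.1, Nfkb1 at 33.0 ± 2.21 and Rel at 27.1 ± 1.86 TPM followed, and Nfkbie, Relb and Tnfaip3 came last at 17.7 ± 1.13, 16.0 ± 4.39 and 14.7 ± 1.16 TPM. The neighbours Nfkbiz and Bcl3, and Nfkb2 and Nfkb1, did not differ beyond the spread of their libraries, and Relb overlapped both Nfkbie and Tnfaip3. Nfkbie, at 16.9 and 18.6 TPM, was above Tnfaip3, at 15.5 and 13.9 TPM, in both libraries.

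In BM Gr-1lo cells Nfkbia was at 110 ± 12.8, Bcl3 at 80.3 ± 3.58, Rela at 64.1 ± 0.844 and Nfkb1 at 47.7 ± 2.68 TPM. Rel and Nfkbiz came next at 33.7 ± 0.440 and 33.5 ± 6.76 TPM and could not be told apart by level. Nfkb2 followed at 21.4 ± 2.96 TPM, and Nfkbie, Tnfaip3 and Relb were lowest at 9.47 ± 0.919, 9.12 ± 1.16 and 5.54 ± 0.764 TPM. Nfkbiz thus stood below Nfkb1 and Rela here, but above both in SP Gr-1hi cells. In BM Gr-1hi and SP Gr-1lo cells Nfkbia was again first, at 190 ± 14.4 and 179 ± 2.18 TPM.

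Ratios of TPM within a library do not depend on the scaling between libraries. Nfkb2 to Nfkb1, the precursor of the non-canonical pathway to that of the canonical pathway, was 1.21 and 0.88 in SP Gr-1hi, 0.76 and 0.85 in SP Gr-1lo, 0.47 and 0.42 in BM Gr-1hi and 0.51 and 0.39 in BM Gr-1lo. All 4 SP libraries were above all 4 BM libraries, and the subsets of BM overlapped. Nfkbia to Rela, an inhibitor to a subunit it binds, was 3.78 and 4.31 in SP Gr-1hi, 2.80 and 2.84 in BM Gr-1hi, 2.51 and 2.69 in SP Gr-1lo and 1.84 and 1.58 in BM Gr-1lo. The groups did not overlap and kept the order seen for the level of Nfkbia. Rel to Rela was higher in Gr-1lo cells, at 0.48 and 0.53 in SP and 0.53 in both BM libraries, than in Gr-1hi cells, at 0.37 and 0.35 in SP and 0.28 in both BM libraries. The 5 inhibitors summed to 2.90 and 3.99 times the 5 subunits in SP Gr-1hi, 3.16 and 3.20 in BM Gr-1hi, 1.75 and 1.74 in SP Gr-1lo and 1.45 and 1.35 in BM Gr-1lo, so that the subsets separated and the tissues overlapped within Gr-1hi cells. These ratios are of transcripts and are given as a description, without a test.

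**Figure D3:**
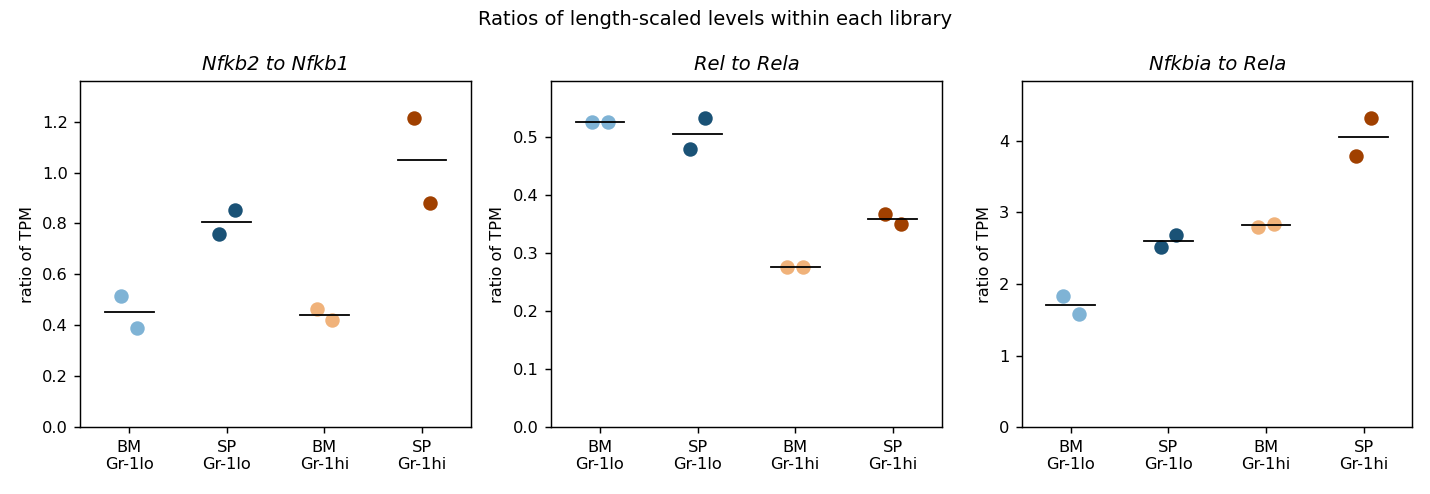
Ratio of length-scaled levels (TPM, linear axis from 0) within each library for Nfkb2 to Nfkb1, Rel to Rela and Nfkbia to Rela, with 1 point a library and a bar at the mean of the 2 libraries of a group. Nfkb2 to Nfkb1 separates SP (0.76 to 1.21) from BM (0.39 to 0.51), whereas Rel to Rela separates Gr-1lo (0.48 to 0.53) from Gr-1hi cells (0.28 to 0.37).

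Across the 8 libraries, Pearson's r of log2 CPM was 0.97 between Rela and Nfkbiz, 0.96 between Nfkbia and Nfkbiz and 0.94 between Rela and Bcl3, which were all called between the subsets in both tissues. It was 0.92 between Nfkb2 and Tnfaip3 and 0.90 between Nfkb2 and Relb, which were all called between the tissues in both subsets, and 0.01 between Nfkb1 and Nfkb2. Each was also compared with 9634 genes of at least 10 CPM in 2 or more libraries, which a gene could reach in 1 group alone. Closest in pattern to Nfkb2 were Lck (r = 0.984), a T cell kinase gene in the T cell marker list, Trac (r = 0.983) and Skint3 (r = 0.979). Trac encodes the constant region of the T cell receptor alpha chain. Lck reached 10 CPM only in SP Gr-1hi libraries 5 and 6, at 22.5 and 12.8 CPM. Its level was 5.36 and 7.10 CPM in SP Gr-1lo, 1.08 and 0.661 CPM in BM Gr-1hi and 0.410 and 0.378 CPM in BM Gr-1lo. For Nfkbia the closest genes were Lst1 (r = 0.995), Zfand5 (r = 0.993) and Marcksl1 (r = 0.988). For Rel they were Arhgap5 (r = 0.970), Abcg1 (r = 0.963) and Bach2 (r = 0.961), a transcription factor gene with high expression in B cells. The 8 points of each r share 4 groups and the sorts of 2 tissues, so these values describe the groups as much as the genes.

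Other genes of the pathway were described by lists. In Gr-1lo cells, of 25 genes for receptors, adaptors and kinases 1 was higher in SP, none was lower and 24 did not pass, with a median log2 fold change of 0.02, where 4.88% of all genes were higher and 0.697% lower. That gene was Cd40, a costimulatory receptor that feeds both arms of the pathway, at 21.5 ± 5.26 CPM in SP and 10.5 ± 1.61 CPM in BM (n = 2, log2 fold change 1.03, SE 0.22, adjusted p = 0.0325). It did not pass when any one of SP Gr-1lo library 8, BM Gr-1hi libraries 9 and 10 or BM Gr-1lo libraries 11 and 12 was left out, since no gene of the list then passed. In Gr-1hi cells 5 of the 25 were higher, 2 lower and 18 did not pass, with a median of 0.05, where 20.1% of all genes were higher and 13.9% lower, so the shares were no larger than the background. The counts were 4 higher and 5 lower under RLE scaling, and 3 higher and none lower without libraries 5 and 7. With 1 library left out, 11 of the 25 passed in all without SP Gr-1hi library 6. Cd40 had the largest change of the 25 in Gr-1hi cells too, at 3.59 (SE 0.35, adjusted p = 0.000328). It stayed below 10 CPM there, at 5.47 ± 1.51 CPM in SP and 0.451 ± 0.00388 CPM in BM (n = 2). Tnfrsf11a rose by 1.82 (SE 0.47, adjusted p = 0.0188), at 1.04 and 0.300 CPM. Above 10 CPM the largest increases were those of Traf5, a receptor adaptor, by 1.18 (SE 0.19, adjusted p = 0.00257), and Tnfrsf1b, a tumour necrosis factor receptor, by 0.96 (SE 0.15, adjusted p = 0.00245). The 2 that fell were Map3k7, the kinase TAK1, at -0.44 (SE 0.09, adjusted p = 0.00820), and its partner Tab1 at -0.38 (SE 0.11, adjusted p = 0.0284), and neither passed without libraries 5 and 7.

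Of 16 other inhibitors of the pathway, 2 were higher in SP Gr-1lo cells and none lower (median 0.15), and 3 were higher and 2 lower in SP Gr-1hi cells (median -0.09). Over all genes, 4.88% were higher and 0.697% lower in Gr-1lo cells and 20.1% and 13.9% in Gr-1hi cells, so the Gr-1hi counts were near the background. No gene of this list passed in Gr-1lo cells without SP Gr-1lo library 8 and 1 passed without BM Gr-1lo library 12, whereas 4 passed without either SP Gr-1hi library. In Gr-1hi cells 1 passed without SP library 5, 2 without BM library 10, 3 without BM library 9, and 2, both higher, without libraries 5 and 7. Zc3h12a and Commd1 lost their calls without SP Gr-1hi library 5 or BM Gr-1hi library 10. In Gr-1lo cells N4bp1, which curbs canonical signalling, was at 156 ± 9.20 CPM in SP and 98.8 ± 6.95 CPM in BM (n = 2, log2 fold change 0.66, SE 0.09, adjusted p = 0.00432), a call lost without SP Gr-1lo library 8. In Gr-1hi cells Tnip2, which encodes a partner of A20, was at 34.7 ± 8.69 against 11.5 ± 1.44 CPM (n = 2, log2 fold change 1.60, SE 0.18, adjusted p = 0.000554). Zc3h12a, the RNase Regnase-1, rose by 0.50 (SE 0.10, adjusted p = 0.00834). Commd1, at -0.44 (SE 0.13, adjusted p = 0.0273), and Irak3, a brake on Toll-like receptor signalling, at -0.30 (SE 0.10, adjusted p = 0.0427), fell, but neither passed without libraries 5 and 7.

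Of 26 known targets of NF-kB, 23 were tested, and Csf2, Cxcl1 and Il6 were too low. In Gr-1lo cells 10 of the 23 were higher in SP and none lower, with a median log2 fold change of 1.20, and in Gr-1hi cells 15 of the 23 were higher and none lower, with a median of 1.09. The same thresholds gave 4.88% and 20.1% of all genes, and medians of -0.01 and 0.03. The 8 that did not pass in Gr-1hi cells included Tnf at -0.74 (SE 0.26, adjusted p = 0.0626), Cflar at -0.17 and Cxcl2 at -0.07. The other genes of these 8 were above 0, namely Nos2, Il1b, Ccl4, Ptgs2 and Ccl3, at 2.04, 1.58, 0.82, 0.69 and 0.65. Cxcl10, a chemokine gene also driven by interferon, was at 30.4 ± 1.81 CPM in SP Gr-1hi against 1.08 ± 0.575 CPM in BM Gr-1hi (n = 2, log2 fold change 4.83, SE 0.47, adjusted p = 0.000524), and at 39.2 ± 20.3 against 4.47 ± 0.231 CPM in Gr-1lo cells (3.14, SE 0.38, adjusted p = 0.00359). Cd83, a gene of activated dendritic and B cells, was at 11.6 ± 4.18 against 0.427 ± 0.137 CPM in Gr-1hi cells (n = 2, log2 fold change 4.74, SE 0.43, adjusted p = 0.000256). Bcl2a1b, a survival gene whose paralogs share sequence so that reads may be split among them, was at 10.7 ± 5.35 against 0.826 ± 0.0195 CPM in Gr-1lo cells (n = 2, log2 fold change 3.70, SE 0.37, adjusted p = 0.00107). The target count in Gr-1lo cells was 6 without SP Gr-1lo library 8, BM Gr-1lo library 11 or BM Gr-1lo library 12. The target count in Gr-1hi cells fell most without SP Gr-1hi library 5, BM Gr-1hi library 9 or BM Gr-1hi library 10. With all libraries, 14 were higher and 1 lower in Gr-1hi cells under RLE scaling, and 17 higher and none lower under upper-quartile scaling. The B, T, plasma and dendritic cell and splenic macrophage marker sums given above moved with these targets too, and their part was not tested.

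**Figure D4:**
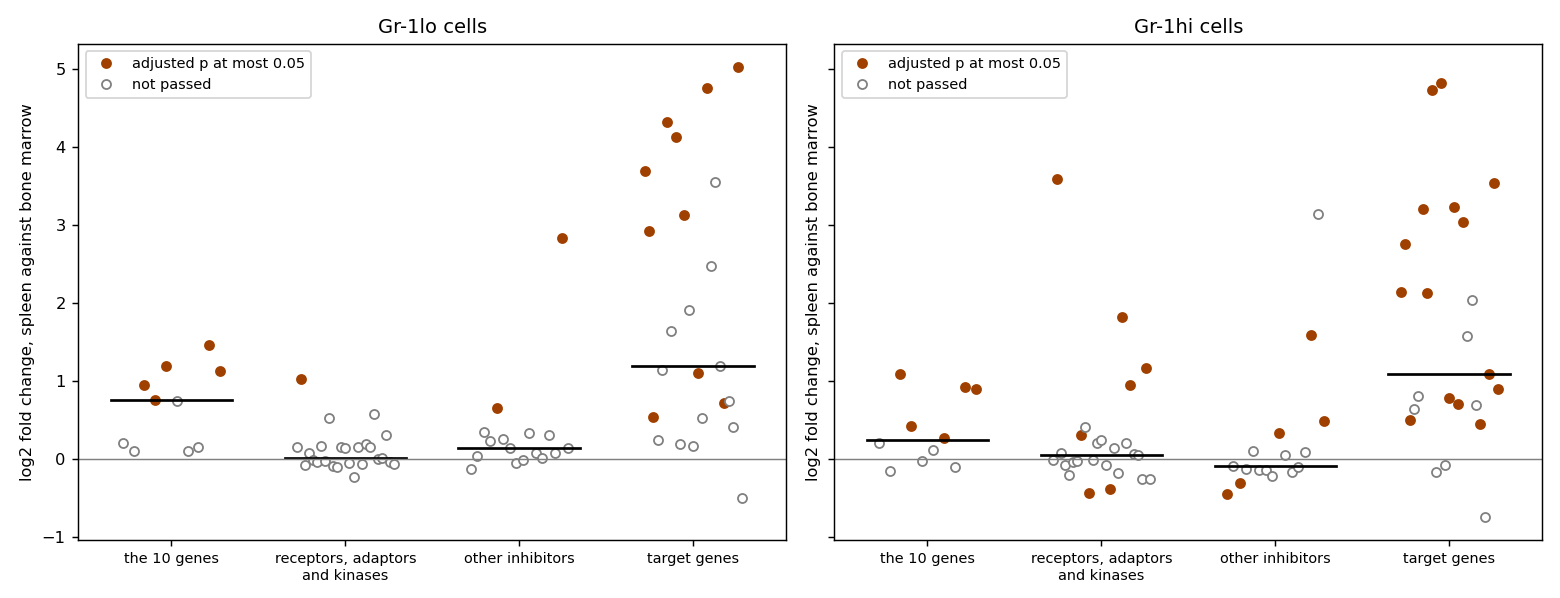
Log2 fold change of SP over BM (y axis) for the 10 genes, 25 receptors, adaptors and kinases, 16 other inhibitors and 23 target genes tested, in Gr-1lo (left) and Gr-1hi cells (right). Each point is a gene, filled points have an adjusted p of at most 0.05 in edgeR's quasi-likelihood test, and bars mark the medians. The medians of the target genes, 1.20 and 1.09, stand above those of the other lists, and the 10 genes have medians of 0.76 and 0.24.

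The promoter windows of the lists were searched in the same way. The NF-kB consensus was found in 2 of 20 receptor, adaptor and kinase genes with a window (10.0%), 5 of 13 other inhibitors (38.462%) and 7 of 21 target genes (33.333%), against 6 of 7 of the members. The 5 members with a match and a call between the tissues in at least 1 subset were Nfkb2, Rel, Nfkbia, Nfkbie and Tnfaip3. The call of Rel, in Gr-1hi cells only, passed under 2 of 15 alternatives. Bcl3 had a match without such a call. Relb, which was called in both subsets, had no window and could not be searched, and the same held for Nfkb1 and Nfkbiz.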

How the data were processed

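Per the labels and the methods of the study, the authors made stranded mRNA libraries (101 bp paired reads), checked reads with FastQC, trimmed them with Sickle, aligned them to GRCm38 with STAR and counted them per gene with featureCounts. The deposited values are raw counts without normalization, for 54188 genes in 8 libraries of 33453580 to 68316154 counts.

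The analysis used R 4.3.3 and edgeR 4.0.16, with genes filtered by filterByExpr (17650 left), TMM scaling and 1 robust quasi-likelihood model of 4 groups with 4 residual degrees of freedom. The study tested quantile-normalized TPM, which is an alternative here (limma 3.58.1). Benjamini-Hochberg adjustment covered all genes tested, with calls at 0.05. SE is the log2 fold change divided by the square root of F. TPM used exon lengths of GENCODE M21 (53947 genes), an earlier release than the one the authors used. All 10 members are named, and from each pathway list the 2 largest increases and 2 largest decreases among calls at 10 CPM or more. The members and lists were chosen with earlier results of these data known. On simulated counts for SP against BM in Gr-1hi cells, 179 of 200 genes changed by 1 on the log2 scale were recovered (17143 genes). Of those changed by 2, 198 of 200 were recovered (17060 genes), and 17 and 6 unchanged genes were called. The changed genes were drawn from those with a mean above 5 CPM, whereas the data were tested down to a mean of 0.062 CPM. The recovery therefore does not cover low genes. The simulation gave each gene the same spread in all 4 groups. It therefore leaves out the wider spread of the SP Gr-1hi libraries (chi-square per degree of freedom 68.2) and does not give the recovery in the data themselves. Alternatives were RLE and upper-quartile scaling, no filter, DESeq2 1.42.0, limma on log2 of quantile-normalized TPM plus 1, a fit of the 4 libraries compared, each library left out, and libraries 5 and 7 left out.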

Additional observations from a re-analysis of the deposited data

Results flagged for a closer look

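Nfkbie was singled out because its tissue difference differed between the subsets in a direct test. The SP over BM log2 fold change in Gr-1hi cells less that in Gr-1lo cells was -1.22 (SE 0.22, adjusted p = 0.0107, the quasi-likelihood F test of edgeR, Benjamini-Hochberg adjusted), from group means of 26.98 ± 3.25 and 27.3 ± 2.61 CPM in SP and BM Gr-1hi cells and 21.5 ± 3.92 and 9.36 ± 0.786 CPM in SP and BM Gr-1lo cells (SD, n = 2). Both SP Gr-1lo libraries lay above both BM Gr-1lo libraries, whereas the Gr-1hi groups overlapped. Without libraries 5 and 7 it was -1.25 (adjusted p = 0.0196). Of 10 neutrophil markers, 5 passed as higher in SP than BM in Gr-1lo cells and 6 passed as lower in Gr-1hi cells. The others did not pass, and not all of them moved that way. In Gr-1lo cells Retnlg was at 7.91 and 14.9 CPM in SP against 17.3 and 32.1 CPM in BM. In Gr-1hi cells Cxcr2 was at 2760 and 2269 CPM in SP against 2525 and 2300 CPM in BM. The part of these markers was not tested.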

How the results depend on the processing

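The study calls its BM cells autologous, so libraries of different groups may come from the same mice. Library 5 is an exception, as its sex-linked transcripts matched no BM library. It held 12032 counts of Xist and 0 of Ddx3y, against at most 5 and 1725 to 2783 in the BM libraries. The labels do not say which libraries share a mouse, so no paired analysis was run. The number of members passing was 1 to 5 in SP against BM of Gr-1hi cells when a library was left out (1 without BM Gr-1hi library 10 and 3 without library 9), 2 to 6 in Gr-1lo cells (2 without BM Gr-1lo library 12), 6 to 7 for Gr-1hi against Gr-1lo in BM, 4 to 7 in SP and 1 to 3 for the interaction (3 without SP Gr-1hi library 6). It was 8 in Gr-1hi against Gr-1lo in SP under RLE scaling and 8 under DESeq2, and 2 for the interaction with no filter. The share of all genes passing was taken for the main fit only. Counts of members or list genes under the alternatives thus have no background beside them and do not tell a change in these genes from one in all genes. No member that passed with all libraries changed direction under the alternatives run. Changes of sign were in values that did not pass with all libraries, among them Nfkbiz at -0.64 without SP Gr-1hi library 6. In SP against BM of Gr-1hi cells, Nfkbiz ranged from -0.64 to 0.50 with a library left out. Nfkbie was at 0.055 under upper-quartile scaling, 0.00018 with no filter, 0.11 without libraries 5 and 7, and -0.22 to 0.019 with a library left out. Bcl3 was at -0.023 without libraries 5 and 7 and ranged from -0.12 to 0.34, and N4bp1 from -0.036 to 0.11. In Gr-1lo cells, Traf5 was at 0.0093 under upper-quartile scaling, 0.020 with no filter, 0.098 without libraries 5 and 7, and -0.18 to 0.12 with a library left out, and Tnip2 was at -0.022 without libraries 5 and 7 and ranged from -0.0059 to 0.17. For Gr-1hi against Gr-1lo in BM, Rel was at -0.080 with no filter, -0.065 under limma, -0.025 without libraries 5 and 7, and -0.0052 to 0.16 with a library left out. In SP, Nfkb1 was at 0.11 under RLE scaling, 0.056 under upper-quartile scaling and 0.11 under DESeq2. Tnfaip3 was at -0.17 without libraries 5 and 7 and ranged from -0.15 to 0.52, and Nfkb2 was at -0.039 without libraries 5 and 7. For the interaction, Bcl3 was at 0.044 under upper-quartile scaling, 0.025 under limma, and -0.34 to 0.12 with a library left out. Nfkb2 was at -0.20 without libraries 5 and 7, -0.039 under limma, and -0.21 to 0.27, and Tnfaip3 ranged from -0.53 to 0.14. The cause was not tested. Leaving out a library leaves its group with 1, assumed to vary like the others. Upper-quartile scaling and limma put the median of all genes in SP against BM of Gr-1hi cells at 0.11 and -0.11, against 0.03.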
